A study of Homo sapiens with 9 samples.

Results

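Expression of 10 epithelial regulators was examined after knockdown of ALKBH5, the demethylase that removes N6-methyladenosine from RNA, in the lung adenocarcinoma cell line PC9. The genes were chosen by name, with earlier results of these data known, as were the gene lists below. Counts set beside the shares of all clusters are therefore descriptions without a test. The 10 genes are the transcription factors ELF3, EHF, GRHL1, GRHL2, GRHL3, OVOL1, OVOL2 and KLF5, and the splicing factors ESRP1 and ESRP2. Of these 10 genes, 9 had a transcript cluster, the probe group that stands for a gene on the array, under their symbol, among 21448 clusters tested. ESRP2 was not analysed here. RNA was collected 96 h after transfection at 15 nM, with 3 arrays each for siALKBH5#3, siALKBH5#1 and siControl. Both knockdown siRNAs target ALKBH5 at different sequences, whereas siControl is the negative control siRNA that the study calls siNC. All 3 groups were the same cell line under transient transfection. Samples are named biological replicates in the labels, but how their cultures were kept apart is not given, and the p-values therefore cover the spread between these 3 samples of each group, which may be technical. Fewer cells of a kind and less RNA per cell cannot be told apart in such bulk samples.

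ALKBH5 itself averaged 40.5 ± 14.3 with siALKBH5#3 and 107 ± 9.01 with siALKBH5#1, against 2828 ± 474 with siControl (intensity, SD, n = 3 each). The median intensity of the 9 arrays lay between 102.67 and 105.175. The cells carried a strong epithelial signal: EPCAM, KRT7, KRT8, KRT18 and KRT19 were above the 99th percentile of clusters on all 9 arrays. KRT7 was lower with siALKBH5#1 than with siControl (log2 fold change -0.40, adjusted p = 0.048). It was higher with siALKBH5#3 than with siALKBH5#1 (0.35, adjusted p = 0.0477). Both KRT7 calls were lost when any 1 of the 9 arrays was left out (adjusted p up to 0.146 and 0.181). The lung lineage markers of adenocarcinoma were dim. NKX2-1 lay between the 26th and 39.9th percentile, NAPSA between the 7.61th and 18.6th, and SFTPB, SFTPC and SFTPA1 at or below the 32.7th. Markers of other cell types were also summed. The 7 fibroblast markers summed to 377 to 451 with siALKBH5#3 and 344 to 417 with siALKBH5#1, against 403 to 442 with siControl. The 5 immune cell markers summed to 4476 to 4830 and 5341 to 6754 with the same siRNAs, against 3498 to 3808, and the 6 endothelial markers to 290 to 306 and 236 to 283, against 341 to 440. CD68 carried the immune sum, at 3354 to 6613 on the 9 arrays, whereas the other 4 immune markers did not exceed 57.6. CD68 was higher with siALKBH5#1 (log2 fold change 0.68, adjusted p = 0.00565) and CD14 lower (-0.58, adjusted p = 0.0328, up to 0.117 when replicate 2 or 3 of siALKBH5#1, or replicate 1 or 2 of siControl, was left out), and the median of the 5 was -0.23 with siALKBH5#3 and -0.22 with siALKBH5#1. PECAM1 was lower with siALKBH5#3 and siALKBH5#1 (adjusted p = 0.00204 and 0.00408), at 73.5 to 173 on the 9 arrays. CDH5 was lower with siALKBH5#1 (adjusted p = 0.0107), and no other endothelial marker was called against siControl. The 4 squamous and basal markers summed to 1568 to 1973 with siALKBH5#3 and 991 to 1051 with siALKBH5#1, against 870 to 1101 with siControl. KRT5 carried that sum, at 813 to 1906 on the 9 arrays. The part of these markers in the results was not tested.

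The factors act at different levels of the epithelial program. ELF3 and EHF are ETS-family transcription factors restricted to epithelia. The grainyhead-like factors GRHL1, GRHL2 and GRHL3 bind enhancers of junction genes such as CDH1, and the zinc-finger repressors OVOL1 and OVOL2 repress the genes of the mesenchymal repressor ZEB1 and its relatives. KLF5 is a Krüppel-like activator of growth in epithelial progenitors. ESRP1 and ESRP2 are RNA-binding proteins that select the epithelial exons of transcripts such as CD44, CTNND1 and ENAH. In carcinomas these genes are known for loss during epithelial-mesenchymal transition (EMT), in which the ZEB, SNAI and TWIST repressors bind E-boxes in epithelial promoters.

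ELF3 was the factor lower with both siRNAs, while GRHL3 and OVOL1 were higher with siALKBH5#3. Their promoters are shown because these are the genes whose level differed from siControl. RefSeq windows (GRCh38.p14, plus strand) were read for the 250 bases before the annotated start, with the E-box CAGGTG, which reads CACCTG on the other strand, in capitals. OVOL1 is named without its promoter.
ELF3, chr1:202010337-202010586: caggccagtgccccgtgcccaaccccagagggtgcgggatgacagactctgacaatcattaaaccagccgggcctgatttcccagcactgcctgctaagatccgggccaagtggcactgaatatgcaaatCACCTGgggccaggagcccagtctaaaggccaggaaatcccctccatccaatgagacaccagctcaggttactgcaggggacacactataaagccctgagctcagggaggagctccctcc
GRHL3, first start, chr1:24319107-24319356: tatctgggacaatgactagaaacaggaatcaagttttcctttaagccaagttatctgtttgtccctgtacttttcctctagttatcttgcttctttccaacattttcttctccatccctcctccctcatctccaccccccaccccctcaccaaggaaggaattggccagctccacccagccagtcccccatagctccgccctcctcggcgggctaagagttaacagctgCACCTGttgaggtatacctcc
The ELF3 window held 1 such E-box, 120 bases before the start, and the first GRHL3 window held 1, at 21 bases before the start. A second GRHL3 window, both EHF windows, the GRHL1 window and both KLF5 windows held none of this form. Other forms of the E-box were not searched. Of 35116 RefSeq windows, 17.5% held this E-box. The grainyhead motif AACCNGTT, present in 1.49% of windows on either strand, and the ETS motif GGAAGT, in 19.5%, were in none of the 8 windows of ELF3, EHF, GRHL1, GRHL3 and KLF5. The Krüppel-like motif CCACCC, in 31.3% of windows, occurred 3 times in the first GRHL3 window, 1 time in the second and 3 times in the first EHF window. These are letter matches, and no binding was measured.

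To ask whether the loss of ALKBH5 changed these regulators, each siRNA was compared with siControl, and the siRNAs were compared directly with each other. With siALKBH5#3, 3 of the 9 factors passed an adjusted p of 0.05. GRHL3 and OVOL1 were higher, beside 8.72% of all clusters, and ELF3 was lower, beside 7.04% of all clusters. With siALKBH5#1, ELF3 was lower, beside 3.56% of all clusters. No factor was called higher by limma, beside 4.51% of all clusters, although 1 was higher at an unadjusted p under 0.05 and 1 when limma used an intensity trend with a robust prior. ELF3 was the 1 factor called in the same direction with both siRNAs, beside 2.29% of all clusters. Both comparisons use the same siControl arrays. Where arrays of a factor are said below not to overlap between groups, this is a description only. The share of all clusters separated in this way was not counted. Between siALKBH5#3 and siALKBH5#1, 6 of 9 factors differed. The 4 that were higher with siALKBH5#3 were GRHL1, GRHL2, GRHL3 and OVOL1, beside 9.55% of all clusters, and the 2 that were lower were OVOL2 and KLF5, beside 9.55% of all clusters. The median log2 fold change of the 9 factors was -0.10 with siALKBH5#3 and -0.17 with siALKBH5#1 against siControl, beside -0.02 and -0.01 over all clusters. Between the siRNAs it was 0.40, beside -0.0013 over all clusters.

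**Figure D1:**
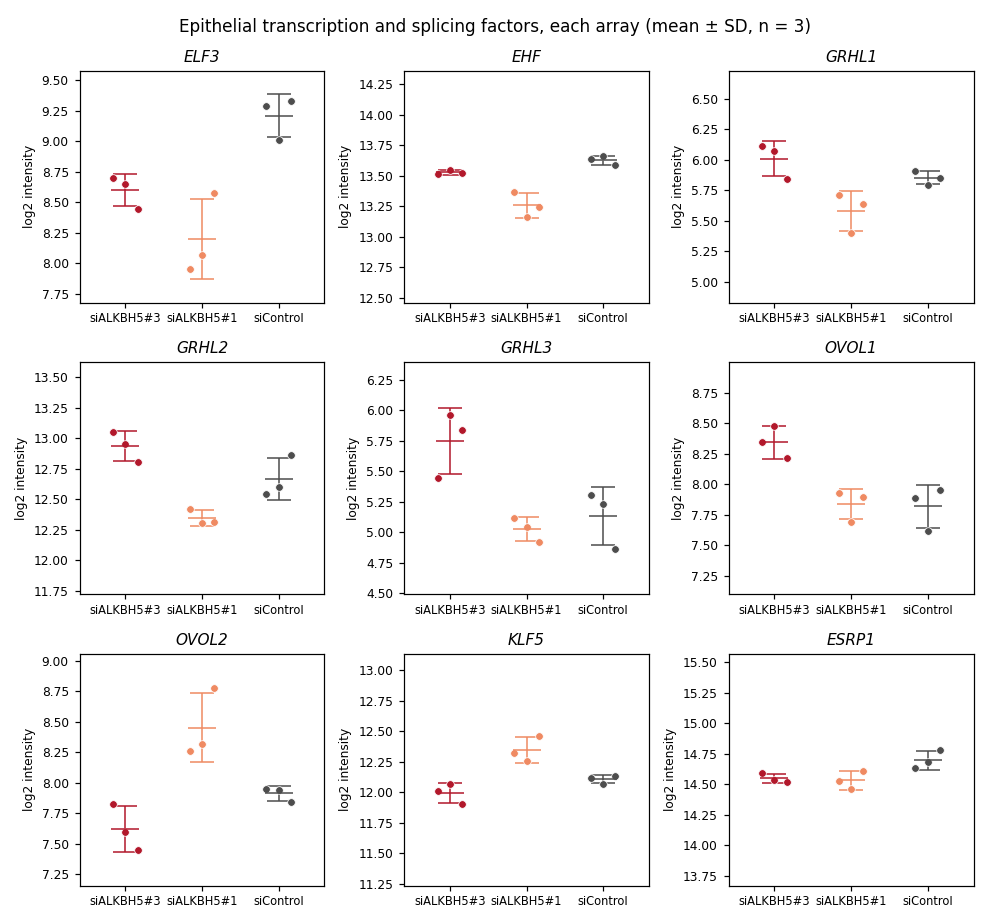
Log2 intensity of the 9 measured factors on each array (points), with the group mean and SD (bars, n = 3), for siALKBH5#3, siALKBH5#1 and siControl. Every panel spans the same range of log2 intensity. ELF3 lies below siControl on all 6 knockdown arrays. The group means of GRHL1, GRHL2, GRHL3, OVOL2 and KLF5 lie on opposite sides of siControl with the 2 siRNAs. Of these differences from siControl, only that of GRHL3 with siALKBH5#3 was called.

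ELF3 (chr1:202010587-202017183) is an ETS-family activator of epithelial differentiation genes. Its intensity was 415, 402 and 349.5 with siALKBH5#3 and 248, 268 and 381 with siALKBH5#1, against 624, 514 and 644 with siControl. All 6 knockdown arrays lay below the lowest siControl array. The fall was 1.52-fold with siALKBH5#3 (95% CI 1.18 to 1.96, adjusted p = 0.0282) and 2.01-fold with siALKBH5#1 (95% CI 1.56 to 2.59, adjusted p = 0.00334). The siRNA groups overlapped and their difference of 0.40 ± 0.17 on the log2 scale did not pass (SE, adjusted p = 0.127), although it passed without siALKBH5#1 replicate 3 (0.59, adjusted p = 0.0207). With siALKBH5#1 the call held when each array was left out in turn. With siALKBH5#3 it was lost without replicate 1, 2 or 3 of siALKBH5#3 (adjusted p = 0.0503, 0.065 and 0.101) and without siControl replicate 1 or 3 (adjusted p = 0.082 and 0.0768). Of all named genes, SEMA4B (Pearson's r = 0.972 over 9 arrays) and SOCS5 (r = 0.965) followed ELF3 most closely. The study itself lists ELF3 among the genes lower with both siRNAs on these same arrays. It gives a qPCR primer pair for ELF3, but does not name ELF3 among the genes whose change qPCR bore out.

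EHF (chr11:34621093-34663288) is a close relative of ELF3 in the same ETS subfamily. Its intensity was 11668, 11992 and 11763 with siALKBH5#3 and 10537, 9179.6 and 9686 with siALKBH5#1, against 12710, 12917 and 12307 with siControl. The 3 groups did not overlap, in the order siControl, siALKBH5#3 and siALKBH5#1, yet neighbouring groups were not separated by the test. The log2 fold change against siControl was -0.10 ± 0.11 with siALKBH5#3 (SE, adjusted p = 0.602) and -0.37 ± 0.11 with siALKBH5#1 (adjusted p = 0.0568). The siALKBH5#1 value passed with an intensity trend (adjusted p = 0.00301), with quantile normalization (0.0316), with a pseudocount (0.0148) and without dim clusters (0.0362). The ETS-family relatives ETS1 (fold 1.76, adjusted p = 0.00681) and ETS2 (fold 1.72, adjusted p = 0.00454), which are not restricted to epithelia, were higher with siALKBH5#3 than with siALKBH5#1. ELF5, an ETS factor of glandular epithelia, was lower with siALKBH5#3 than with siControl (mean intensity 28.3 against 56.5, adjusted p = 0.044), with overlapping groups at a dim signal, a call lost when any of 6 of the 9 arrays was left out (adjusted p up to 0.163).

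All 3 grainyhead-like genes were higher with siALKBH5#3 than with siALKBH5#1. GRHL2, a direct activator of CDH1 and of tight junction genes, lies on chromosome 8. Its intensity was 8483, 7941 and 7130 with siALKBH5#3 and 5483, 5046 and 5091 with siALKBH5#1, against 5961, 6203 and 7455 with siControl. The siRNA groups did not overlap, and siALKBH5#3 overlapped siControl. GRHL2 was 1.51-fold higher with siALKBH5#3 than with siALKBH5#1 (95% CI 1.24 to 1.82, adjusted p = 0.00565). Against siControl the log2 fold change was 0.27 ± 0.13 with siALKBH5#3 (adjusted p = 0.184) and -0.32 ± 0.13 with siALKBH5#1 (adjusted p = 0.146, or 0.0372 with an intensity trend). The nearest patterns were those of WDR37 (r = 0.977) and NTN4 (r = 0.973).

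GRHL3 (chr1:24319357-24364482) drives epidermal barrier formation and wound closure. Its intensity was 43.6, 62.3 and 57.3 with siALKBH5#3 and 34.6, 32.9 and 30.3 with siALKBH5#1, against 39.5, 37.5 and 29.1 with siControl. All siALKBH5#3 arrays lay above every other array, at a dim signal between the 28.8th and 43.7th percentile over the 9 arrays. GRHL3 was 1.53-fold higher with siALKBH5#3 than with siControl (95% CI 1.20 to 1.96, adjusted p = 0.0222) and 1.65-fold higher than with siALKBH5#1 (95% CI 1.30 to 2.11, adjusted p = 0.00715). The call against siControl was lost without siALKBH5#3 replicate 2 or 3 (adjusted p = 0.0953 and 0.0767) or siControl replicate 3 (0.0693). With siALKBH5#1 the log2 fold change was -0.11 ± 0.16 against siControl (adjusted p = 0.74). NFYC (r = 0.973) and HLA-L (r = 0.971) had the nearest patterns.

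GRHL1 (chr2:9951693-10002277) regulates desmosomal cadherins in the epidermis. Its intensity was 69.3, 67.2 and 57.3 with siALKBH5#3 and 52.4, 42.2 and 49.7 with siALKBH5#1, against 59.8, 55.5 and 57.8 with siControl. The siALKBH5#1 arrays were below all others. The log2 difference between siALKBH5#3 and siALKBH5#1 was 0.43 ± 0.13 (adjusted p = 0.0338). That call was lost without siALKBH5#3 replicate 1 or 2 (adjusted p = 0.113 and 0.111), without siALKBH5#1 replicate 2 or 3 (0.139 and 0.0626) and with an intensity trend (0.0828). Neither siRNA passed against siControl (log2 fold change 0.16, adjusted p = 0.454, with siALKBH5#3, and -0.27, adjusted p = 0.23, with siALKBH5#1). NDC80 (r = 0.974) and OR6Q1 (r = 0.971) were most alike.

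The grainyhead relative UBP1, a ubiquitous factor of the same superfamily, was higher with both siRNAs, 1.82-fold with siALKBH5#3 (adjusted p = 0.000965) and 1.51-fold with siALKBH5#1 (adjusted p = 0.0167). The siALKBH5#1 call was lost without siALKBH5#1 replicate 2 or 3 or siControl replicate 2 (adjusted p up to 0.0607).

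The OVOL genes, repressors that hold the mesenchymal program down, differed between the siRNAs in opposite directions. OVOL1 (chr11:65787063-65797214) had an intensity of 324, 356 and 296 with siALKBH5#3 and 243, 207 and 238 with siALKBH5#1, against 236, 197 and 248 with siControl. All siALKBH5#3 arrays were above the other 6. OVOL1 was 1.44-fold higher with siALKBH5#3 than with siControl (95% CI 1.18 to 1.76, adjusted p = 0.019) and 1.42-fold higher than with siALKBH5#1 (95% CI 1.16 to 1.74, adjusted p = 0.0184). Against siControl it was lost without siALKBH5#3 replicate 1 or 2 (adjusted p = 0.0517 and 0.0825) or siControl replicate 2 (0.069), and against siALKBH5#1 without replicate 2 of siALKBH5#3 (0.081) or of siALKBH5#1 (0.0795). With siALKBH5#1 the log2 fold change against siControl was 0.02 (95% CI -0.27 to 0.31, adjusted p = 0.954). PEX5 and OPN3 (both r = 0.989) had the nearest patterns.

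OVOL2 (chr20:18024152-18059188) had an intensity of 226, 193 and 175 with siALKBH5#3 and 307, 319 and 438 with siALKBH5#1, against 247, 246 and 230 with siControl. The 3 groups did not overlap: siALKBH5#1 was highest and siALKBH5#3 lowest. In the direct comparison OVOL2 with siALKBH5#3 was 1.78-fold lower (95% CI 1.41 to 2.24, adjusted p = 0.00235), the difference of smallest adjusted p among the 9 factors in that comparison. Against siControl the log2 fold change was -0.29 ± 0.15 with siALKBH5#3 (adjusted p = 0.239) and 0.54 ± 0.15 with siALKBH5#1 (adjusted p = 0.0525). The siALKBH5#1 value passed with an intensity trend (0.0388), with a pseudocount (0.0345) and without dim clusters (0.0392). TMEM154 (r = 0.97) and RAP2B (r = 0.968) were most alike.

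Among 11 EMT repressors, the genes the OVOL factors oppose, 1 was higher and 1 lower with siALKBH5#3, beside 8.72% and 7.04% of all clusters, and 2 were higher and 1 lower with siALKBH5#1, beside 4.51% and 3.56%. SNAI2 was 1.30-fold higher with siALKBH5#3 than with siControl (adjusted p = 0.0405). TWIST1 (1.76-fold, adjusted p = 0.0379, groups overlapping) and TWIST2 (1.57-fold, adjusted p = 0.0303) were higher with siALKBH5#1. The E-box factor TCF4 was lower with siALKBH5#3 (mean intensity 18.8 against 29.9 with siControl, adjusted p = 0.00913) and with siALKBH5#1 (20.5 against 29.9, adjusted p = 0.0442), at a dim signal. The SNAI2 call was lost when any 1 of the 9 arrays was left out (adjusted p up to 0.131), and the siALKBH5#1 calls of TWIST1 and TCF4 when any of 7 was (up to 0.134 and 0.146). The TWIST2 call was lost when replicate 1 or 3 of siALKBH5#1, or replicate 2 or 3 of siControl, was left out (up to 0.0953). Between the siRNAs no repressor was called by limma, with or without an intensity trend, and 1 was higher (ZEB2) and 0 lower at an unadjusted p under 0.05.

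**Figure D2:**
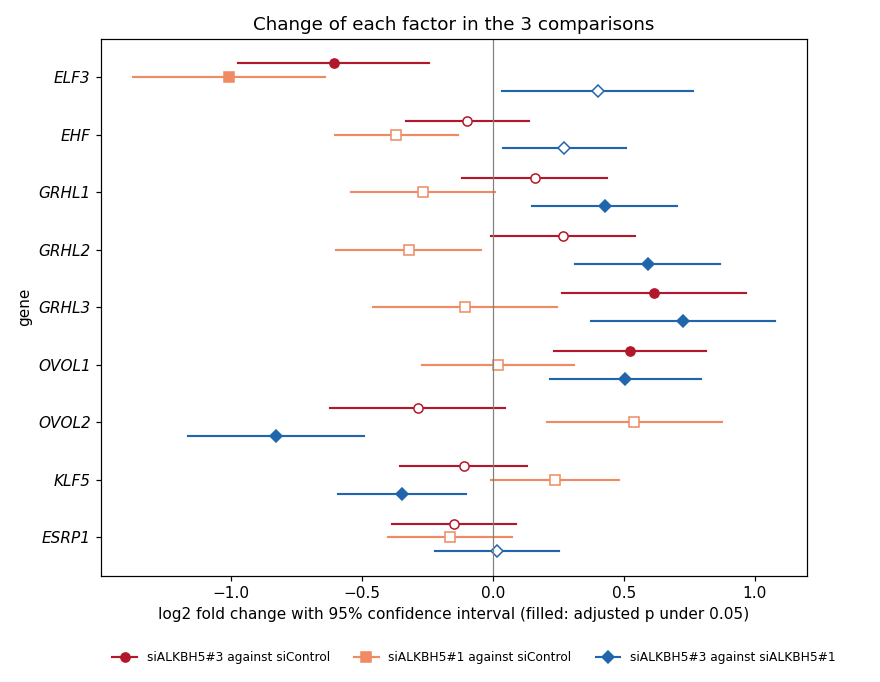
Log2 fold change of each factor (x axis) with its 95% confidence interval for siALKBH5#3 and siALKBH5#1 against siControl and for siALKBH5#3 against siALKBH5#1. Filled symbols passed an adjusted p of 0.05: 3, 1 and 6 of the 9 factors in these comparisons.

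KLF5 (chr13:73054976-73077538) promotes proliferation of epithelial progenitors. Its intensity was 4132, 4291 and 3837 with siALKBH5#3 and 5099.9, 4883 and 5633 with siALKBH5#1, against 4449, 4297 and 4493 with siControl. The 3 groups did not overlap, in the same order as for OVOL2. The log2 difference between siALKBH5#3 and siALKBH5#1 was -0.35 ± 0.11 (adjusted p = 0.0477), and it did not pass when any 1 of the 9 arrays was left out (adjusted p between 0.0508 and 0.158). Against siControl the log2 fold change was -0.11 with siALKBH5#3 (adjusted p = 0.56) and 0.24 with siALKBH5#1 (adjusted p = 0.23). CUEDC2 (r = 0.995) and GJB5 (r = 0.975), a gap junction gene, followed it most closely.

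Of the other Krüppel-like genes, KLF4, an activator of terminal differentiation in squamous epithelia, was 2.15-fold higher with siALKBH5#3 (adjusted p = 0.00149) and 1.57-fold higher with siALKBH5#1 (adjusted p = 0.0442). KLF11 was 1.74-fold and 1.53-fold higher with these siRNAs (adjusted p = 0.00562 and 0.0376). KLF10, a gene induced by TGF-beta, was lower with siALKBH5#1 (mean intensity 2223 against 3814 with siControl, adjusted p = 0.00205) and 1.63-fold higher with siALKBH5#3 than with siALKBH5#1 (adjusted p = 0.00133), as was KLF6 (1.80-fold, adjusted p = 0.000909). The siALKBH5#1 calls of KLF4 and KLF11 were lost when any of 7 of the 9 arrays was left out (adjusted p up to 0.137 and 0.121). Of the 23 measured relatives of the ETS, grainyhead, OVOL and Krüppel-like families, 8 were higher and 2 lower with siALKBH5#3, 3 were higher and 2 lower with siALKBH5#1, and 7 were higher and 1 lower between siALKBH5#3 and siALKBH5#1. The shares higher and lower among all clusters in these comparisons were 8.72% and 7.04%, 4.51% and 3.56%, and 9.55% each. With 1 array left out, 6 to 10 relatives passed with siALKBH5#3, 1 to 4 with siALKBH5#1 and 5 to 9 between the siRNAs.

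ESRP1, the splicing factor of the set on chromosome 8, lay at or above the 97.7th percentile of clusters on every array. Its intensity was 24703, 23748 and 23456 with siALKBH5#3 and 23618, 22504 and 25007 with siALKBH5#1, against 25356, 26269 and 28167 with siControl. All 6 knockdown arrays lay below the lowest siControl array, but how common such separation is among all clusters was not counted. The log2 fold change did not pass, at -0.15 with siALKBH5#3 (95% CI -0.39 to 0.09, adjusted p = 0.403) and -0.17 with siALKBH5#1 (95% CI -0.40 to 0.07, adjusted p = 0.399). The siRNAs differed by 0.02 (95% CI -0.22 to 0.25, adjusted p = 0.948).

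Of 11 measured genes whose transcripts ESRP proteins splice, 2 were higher and 1 lower with each siRNA against siControl, beside 8.72% and 7.04% of all clusters with siALKBH5#3 and 4.51% and 3.56% with siALKBH5#1. A cluster gives the total signal of a gene, so these values say nothing of exon choice. ENAH, an actin regulator, was higher with siALKBH5#3 (1.33-fold, adjusted p = 0.0224) and lower with siALKBH5#1 (mean intensity 12726 against 18078 with siControl, adjusted p = 0.0146), and the siRNAs differed by 0.92 ± 0.11 on the log2 scale (adjusted p = 0.000101). CD44, a hyaluronan receptor, was 1.58-fold higher with siALKBH5#1 (adjusted p = 0.00824) and lower with siALKBH5#3 than with siALKBH5#1 (log2 fold change -0.92, adjusted p = 0.000327). UAP1 was 1.62-fold and 1.53-fold higher with siALKBH5#3 and siALKBH5#1 (adjusted p = 0.00145 and 0.00605). RALGPS2 was lower with siALKBH5#3 (log2 fold change -0.55, adjusted p = 0.0235), a call lost without siALKBH5#3 replicate 1 or siControl replicate 2 (up to 0.0766). ENAH against siControl was lost with siALKBH5#3 without its replicate 2 or 3 or siControl replicate 1 (up to 0.0729), and with siALKBH5#1 without its replicate 1 or 2 (up to 0.0622).

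Of 13 other splicing regulators, 1 was higher and 2 lower with siALKBH5#3, beside 8.72% higher and 7.04% lower among all clusters. With siALKBH5#1, 1 (7.69%) was called, and it was lower, beside 4.51% higher and 3.56% lower among all clusters, a share near that background. RBM47, an RNA-binding protein of epithelia, was lower with both, at a mean of 1987 with siALKBH5#3 and 1593 with siALKBH5#1 against 3111 with siControl (adjusted p = 0.00209 and 0.000276). PTBP2, the neural polypyrimidine-tract binding protein, was 2.34-fold higher with siALKBH5#3 (adjusted p = 0.000242) and 2.64-fold higher than with siALKBH5#1 (adjusted p = 5.14e-05). The muscleblind gene MBNL3 was lower with siALKBH5#3 (log2 fold change -0.83, adjusted p = 0.0036).

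Genes of epithelial junctions and surfaces, many of them known targets of the factors above, differed between the siRNAs in 14 of 24 measured cases, 13 higher and 1 lower with siALKBH5#3. Among all clusters, 9.55% were higher and 9.55% lower. The median log2 difference of the 24 genes was 0.45. Against siControl, 6 were higher and 3 lower with siALKBH5#3 (median 0.12), and 2 were higher and 6 lower with siALKBH5#1 (median -0.28), beside 8.72% and 7.04%, and 4.51% and 3.56%, of all clusters. CDH1, encoding E-cadherin, was 2.24-fold higher with siALKBH5#3 than with siALKBH5#1 (adjusted p = 0.000682). It was lower with siALKBH5#1 than with siControl (mean 4565 against 7754, adjusted p = 0.0233), and its log2 fold change with siALKBH5#3 was 0.41 (adjusted p = 0.154). JUP, encoding plakoglobin, was higher with siALKBH5#3 and lower with siALKBH5#1 (log2 fold change 0.54 and -0.48, adjusted p = 0.00909 and 0.0312). PERP, a desmosomal protein, went the other way between the siRNAs, at a mean of 7734 with siALKBH5#3 against 15463 with siALKBH5#1 (adjusted p = 0.000175). The tight junction gene TJP3 was lower with both siRNAs, at a mean of 164 with siALKBH5#3 and 187 with siALKBH5#1 against 337 with siControl (adjusted p = 0.00376 and 0.0217). MUC1, an apical mucin, was lower with siALKBH5#1 (79.5 against 205 with siControl, adjusted p = 0.00257) and did not pass with siALKBH5#3 (161 against 205, adjusted p = 0.371). The adaptor subunit AP1M2, which sorts basolateral proteins, was lower with siALKBH5#1 (log2 fold change -0.80, adjusted p = 0.00381). MARVELD2 and PKP3 were higher with siALKBH5#3 (1.51-fold and 1.49-fold, adjusted p = 0.00514 and 0.0419), and CLDN3 was lower (log2 fold change -0.78, adjusted p = 0.0116). With 1 array left out, 9 to 14 of these genes differed between the siRNAs, 4 to 9 passed with siALKBH5#3 and 3 to 7 with siALKBH5#1 against siControl. The lowest counts came without siALKBH5#1 replicate 1 or siALKBH5#3 replicate 2, without siALKBH5#3 replicate 2, and without siALKBH5#1 replicate 2 or 3, in that order. The siALKBH5#1 calls of CDH1 and TJP3 were lost when replicate 2 or 3 of siALKBH5#1, or replicate 1 or 2 of siControl, was left out (adjusted p up to 0.0918 and 0.0868), that of JUP without any of 5 arrays (up to 0.111), and PKP3 with siALKBH5#3 without any of 6 (up to 0.139). With an intensity trend, 2 were higher and 13 lower with siALKBH5#1.

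**Figure D3:**
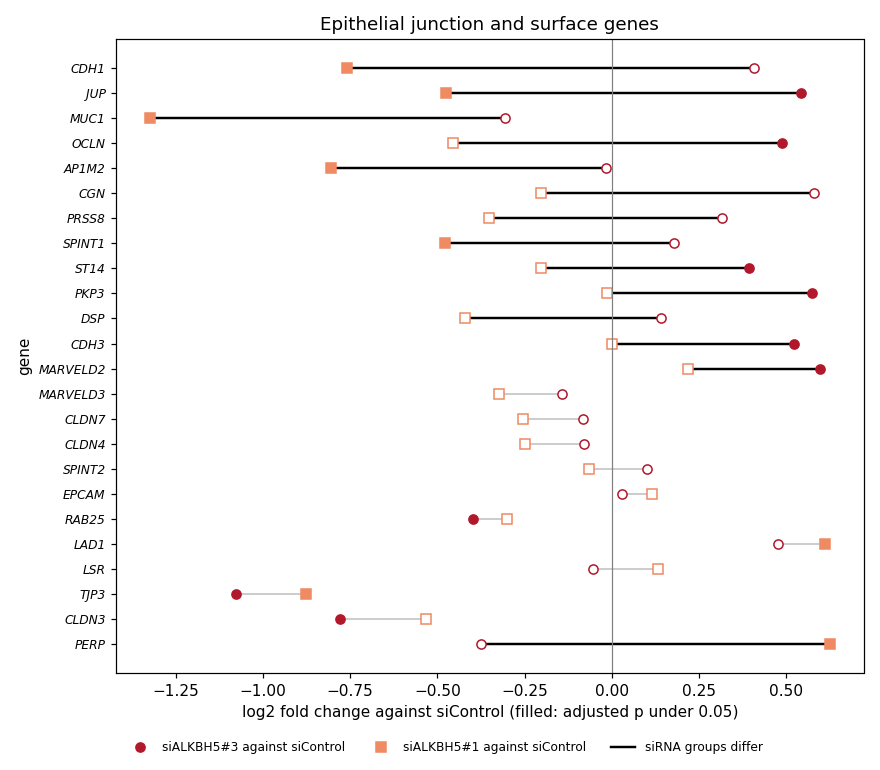
Log2 fold change against siControl (x axis) of 24 epithelial junction and surface genes with siALKBH5#3 (circles) and siALKBH5#1 (squares), filled where the adjusted p was under 0.05. Black lines join the 14 genes that differed between the siRNAs, of which PERP alone was lower with siALKBH5#3.

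Cornified envelope genes are structural products of the squamous program in which GRHL and OVOL factors act, and 14 were measured. PPL was 1.45-fold higher with siALKBH5#1 than with siControl (adjusted p = 0.0365, lost when any of 6 of the 9 arrays was left out, up to 0.117). IVL was 1.83-fold higher with siALKBH5#3 than with siALKBH5#1 (mean 44.0 against 24.7, adjusted p = 0.00596), at a dim signal (32.9th percentile of mean intensity). With siALKBH5#1 against siControl, PPL was the 1 gene called (7.14%), beside 4.51% higher and 3.56% lower among all clusters. Between the siRNAs 1 was higher (IVL) and 1 lower (PPL), 14.3% of the list, beside 9.55% each way. With siALKBH5#3 against siControl none was called by limma, beside 8.72% higher and 7.04% lower. These shares were near or under those of all clusters. With siALKBH5#3, 2 were higher and 1 lower at an unadjusted p under 0.05, and 1 was lower with an intensity trend. The basal keratin KRT5 was 1.84-fold higher with siALKBH5#3 than with siControl (adjusted p = 0.00123), while its log2 fold change with siALKBH5#1 was 0.02 (adjusted p = 0.954).

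**Figure D4:**
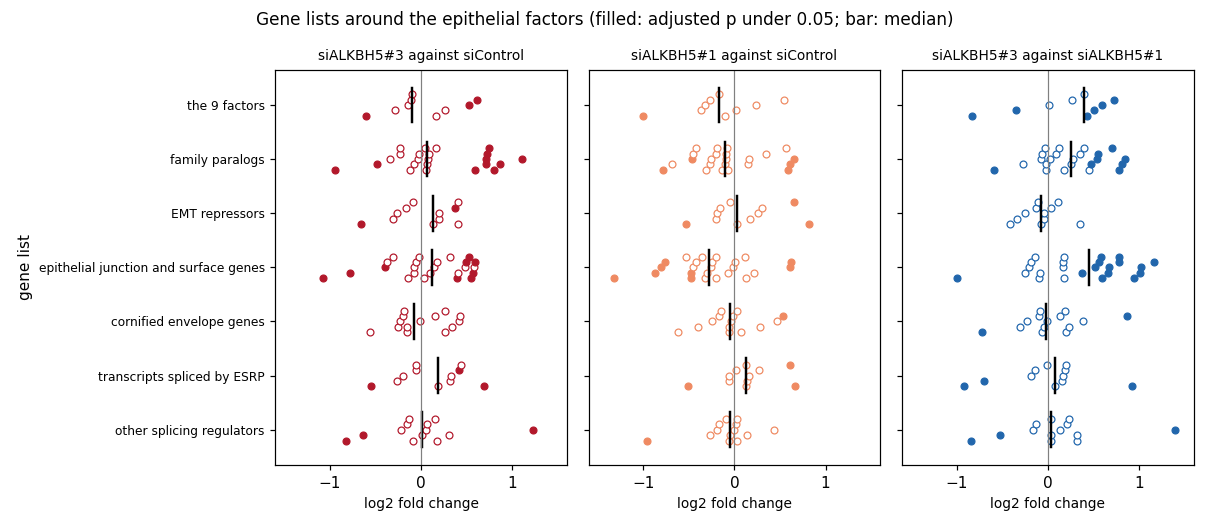
Log2 fold change (x axis) of every measured gene in the lists, for siALKBH5#3 and siALKBH5#1 against siControl and siALKBH5#3 against siALKBH5#1. Filled points passed an adjusted p of 0.05 and vertical bars are list medians, which for the junction and surface genes were 0.12, -0.28 and 0.45.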

How the data were processed

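Clariom S arrays (human) were hybridised with PC9 RNA, 3 per group, and grouped by the sample titles. The deposited values are linear intensities, 1 per transcript cluster, made by the authors with RMA (background correction, normalization between arrays, probe summary). Processing notes name Affymetrix Expression Console and hg38, the methods of the study Microarray Data Analysis Tool version 3.2, so the final scaling step is not settled. Normalization between arrays hides changes of total RNA. No detection calls were used. A percentile is the rank of a cluster on its own array.

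Of 24351 entries, 2903 controls were left out and 21448 clusters tested. 17709 had 1 gene symbol and 3739 none. Symbols, coordinates and promoter windows are RefSeq's (GRCh38.p14). Intensities were taken to log2 without a pseudocount, and limma 3.58.1 (R 4.3.3; lmFit and eBayes) was fitted with a mean per group on all 9 arrays, two-sided, with Benjamini-Hochberg adjustment over all clusters and calls at 0.05. Folds are ratios of geometric means with 95% confidence intervals, and ± after a log2 value is the SE. The number of arrays limits the precision. Scripts were tested on simulated data, with 200 of 21448 clusters changed for siALKBH5#1 against siControl. They recovered 29.2% of 1.5-fold and 79.8% of 2-fold changes. Fewer clusters were changed there than the 1731 called in the data, so these rates need not hold here. A factor that did not pass may still have changed.

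The factors and all lists were chosen with earlier results of these data known. Genes named besides the factors and ALKBH5 were per list and comparison up to 4 called genes of largest log2 fold change (with fewer than 2 called, the 2 of highest intensity), and for each called factor the 2 of highest Pearson's r over the 9 arrays, given as a description without a test. Cell type markers and ZEB2 are named besides, and not every gene picked by this rule is described. Alternatives were an intensity trend with a robust prior, quantile normalization, median centring, a pseudocount of 16, leaving out the dimmest 25% of clusters, only the 6 arrays compared, the replicate number as a block, the methods' t-test, and leaving out each array.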

Additional observations from a re-analysis of the deposited data

Results flagged for a closer look

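Of the 9 factors, 6 differed in the direct limma comparison of siALKBH5#3 with siALKBH5#1, siRNAs against the same gene, at an adjusted p under 0.05. Among all clusters in that comparison, 9.55% were higher and 9.55% lower. The log2 difference was 0.43 for GRHL1, 0.59 for GRHL2, 0.72 for GRHL3, 0.51 for OVOL1, -0.83 for OVOL2 and -0.35 for KLF5. Of 16 limma alternatives, the KLF5 call was lost in 12, that of GRHL1 in 5 and that of OVOL1 in 2. With quantile normalization, and with only the 6 arrays compared, 5 factors differed. ALKBH5 was itself lower with siALKBH5#3 than with siALKBH5#1 (40.5 ± 14.3 against 107 ± 9.01, SD, n = 3 each, adjusted p = 0.000487). The study names off-target effects of its siRNAs as a possible influence on its results. The part of the ALKBH5 level or of off-target effects in these differences was not tested.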

How the results depend on the processing

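The 9 factors kept their direction under every alternative run wherever they were called. GRHL2, GRHL3 and OVOL2 between the siRNAs, and ELF3 with siALKBH5#1, kept their calls in all 16 limma alternatives. With siALKBH5#1 against siControl, 4 factors were called with an intensity trend and robust prior, 2 with quantile normalization and 3 each with a pseudocount of 16 and without the dimmest 25% of clusters, against 1. The methods' t-test after Benjamini-Hochberg called 0 with siALKBH5#3, 0 with siALKBH5#1 (5 each at an unadjusted p under 0.05), 1 between the siRNAs and 0 in both. At its own threshold (p under 0.01, fold above 1.5) it called 1 with siALKBH5#3, 1 with siALKBH5#1 and 1 between the siRNAs. The factor called against siControl was ELF3 with both siRNAs. When each array was left out, the count was 0 to 3 with siALKBH5#3, 1 with siALKBH5#1, 3 to 5 between the siRNAs and 0 to 1 in both. Without siALKBH5#3 replicate 2, limma called 0 with siALKBH5#3 (3 at an unadjusted p under 0.05) and 3 between the siRNAs. Between the siRNAs it was also 3 without siALKBH5#1 replicate 2. Without siALKBH5#3 replicate 1 or 3 or siControl replicate 3, 1 was called with siALKBH5#3. Why these counts moved was not tested. Over all clusters, siALKBH5#1 gave 1731 calls, 2604 with the trend and 1037 to 1723 with an array left out. Quantile normalization gave it 1701, the pseudocount 2376 and leaving out dim clusters 2098 of 16086. With an array left out, siALKBH5#3 gave 2320 to 3235 calls and the direct comparison 3110 to 4284. For siALKBH5#3, siALKBH5#1 and between them, limma gave 3381, 1731 and 4097 calls. The methods' t-test gave 1302, 324 and 2672 after adjustment and 1414, 703 and 2028 at its own threshold. Same-numbered arrays did not deviate together (correlations -0.147 to 0.123). The replicate block gave 3, 1 and 5 factors in the same order and lost the KLF5 call between the siRNAs (adjusted p = 0.0865). Among other genes named above, it also lost SNAI2 with siALKBH5#3 and TWIST1, KLF4, JUP, PPL, KRT7 and CD14 with siALKBH5#1, each against siControl, and MARVELD2, KRT7 and CD14 between the siRNAs.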
